A study of Mus musculus with 36 samples.

Results

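The genes described here encode the keratins, desmosome proteins and cornified envelope proteins of stratified squamous epithelium, the layered lining of skin, mouth, oesophagus and anal canal. The list held 37 mouse genes, and 34 of them had a probe set of their own on the arrays, that is, a group of probes annotated to that gene and no other. Flg and Dsc1 had none, and Dsg1a was covered only by a probe set shared with Dsg1b and Dsg1c. Where a gene had several probe sets, which was the case for Fabp5, the one with the highest mean over the 36 arrays was used. The 34 genes are among 19938 genes with a probe set of their own and 28853 probe sets in all. They were listed because their values had been seen to vary between these arrays, so their levels by group are a description.

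The study measured gene expression in distal colon of mice given dextran sulfate sodium (DSS), a polymer, usually given in drinking water, that injures the colon lining, together with small interfering RNA (siRNA) against tumour necrosis factor (TNF), an inflammatory cytokine. Each of the 36 samples was hybridized to 1 Affymetrix array, and all 36 carry the label 5% DSS. Of these, 9 are titled Control, 7 received the scrambled siRNA, 6 the unmodified siRNA against TNFa (siTNF) and 6 a form of it that carries O-Methyl nucleotides (siTNF-OMe). The remaining 8 received siTNF-OMe-P, whose nucleotides are of the O-Methyl-propanediol kind. The siRNA was given by the intrarectal route. Control is missing from the design text, which lists the 4 siRNA arms alone, and the treatment of the Control mice is therefore unsettled. What a difference from Control stands for is thus not settled either. Strain, age and sex were not found. The labels list a colon length and a colon weight for every sample, and no replicates of a group share both values. Replicates were therefore different colons, although no text calls them separate mice. Every p-value measures the spread between these samples, which may be technical in part. Arrays are named below by group and by the replicate number of their title.

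Colon is lined by a single layer of columnar cells that express the simple keratins Krt8, Krt18, Krt19 and Krt20. Stratified squamous epithelium has a basal layer that expresses Krt5 and Krt14 and divides, suprabasal layers in which Krt5 and Krt14 give way to Krt1 and Krt10 in skin or to Krt4 and Krt13 in moist mucosa such as mouth and oesophagus, and a surface at which loricrin, involucrin and small proline-rich proteins are cross-linked by transglutaminases into the cornified envelope. The squamous lining of the anal canal meets the columnar lining of the rectum at the lower end of the gut.

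Values are log2 probe set intensities as the authors deposited them, so a difference of 1 is a doubling. They ran from 4.95 to 14.1 over the whole table. The standard deviation of an array's values ran from 1.55 to 1.89, and 8 arrays were below 1.7 (Control 4, 5, 6 and 8, scrambled 5, siTNF 3, siTNF-OMe-P 2 and 8). On such narrow arrays the values lie closer together, so a dim probe set can read higher and a bright one lower than elsewhere. The tissue label was checked with 16 colon epithelium genes, among them Krt8, Krt20, Vil1, Cdh17 and Car1. Their mean log2 intensity was between 11.61 and 12.23 on every array, where the median of all probe sets was between 7.98 and 8.25.

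Sets of the squamous genes were raised together on 8 arrays, and how many and which genes rose differed between those arrays. Each gene was expressed as a distance from its own median over the 36 arrays, and the distances of the 34 genes were averaged per array. The mean was 2.29 on siTNF-OMe-P 1, 1.73 on siTNF-OMe-P 2 and 1.37 on siTNF-OMe-P 5. It was 1.60 on siTNF-OMe 3, 1.42 on siTNF-OMe 5, 1.07 on siTNF-OMe 2 and 0.68 on siTNF-OMe 4, and the remaining high array, siTNF 3, reached 0.74. The next array was Control 4 with 0.22. On the 8 high arrays between 9 and 28 of the 34 genes lay at least 1 log2 unit above their median, against 0 to 2 genes on each of the other 28.

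By group, the lowest, median and highest array means were -0.34, -0.16 and 0.22 in Control and -0.13, -0.02 and 0.03 in the scrambled group. They were -0.25, -0.09 and 0.74 in siTNF, -0.06, 0.87 and 1.60 in siTNF-OMe, and -0.03, 0.11 and 2.29 in siTNF-OMe-P. The ranges of all 5 groups therefore overlapped: siTNF-OMe 1 and 6 and siTNF-OMe-P 3, 4, 6, 7 and 8 lay among the Control and scrambled arrays. None of 306 single values in Control and none of 238 in the scrambled group was 1 unit or more above its gene's median, whereas 12 of 204 in siTNF, 63 of 204 in siTNF-OMe and 69 of 272 in siTNF-OMe-P were. In bulk tissue, more cells of a type and more RNA per cell cannot be told apart.

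**Figure D1:**
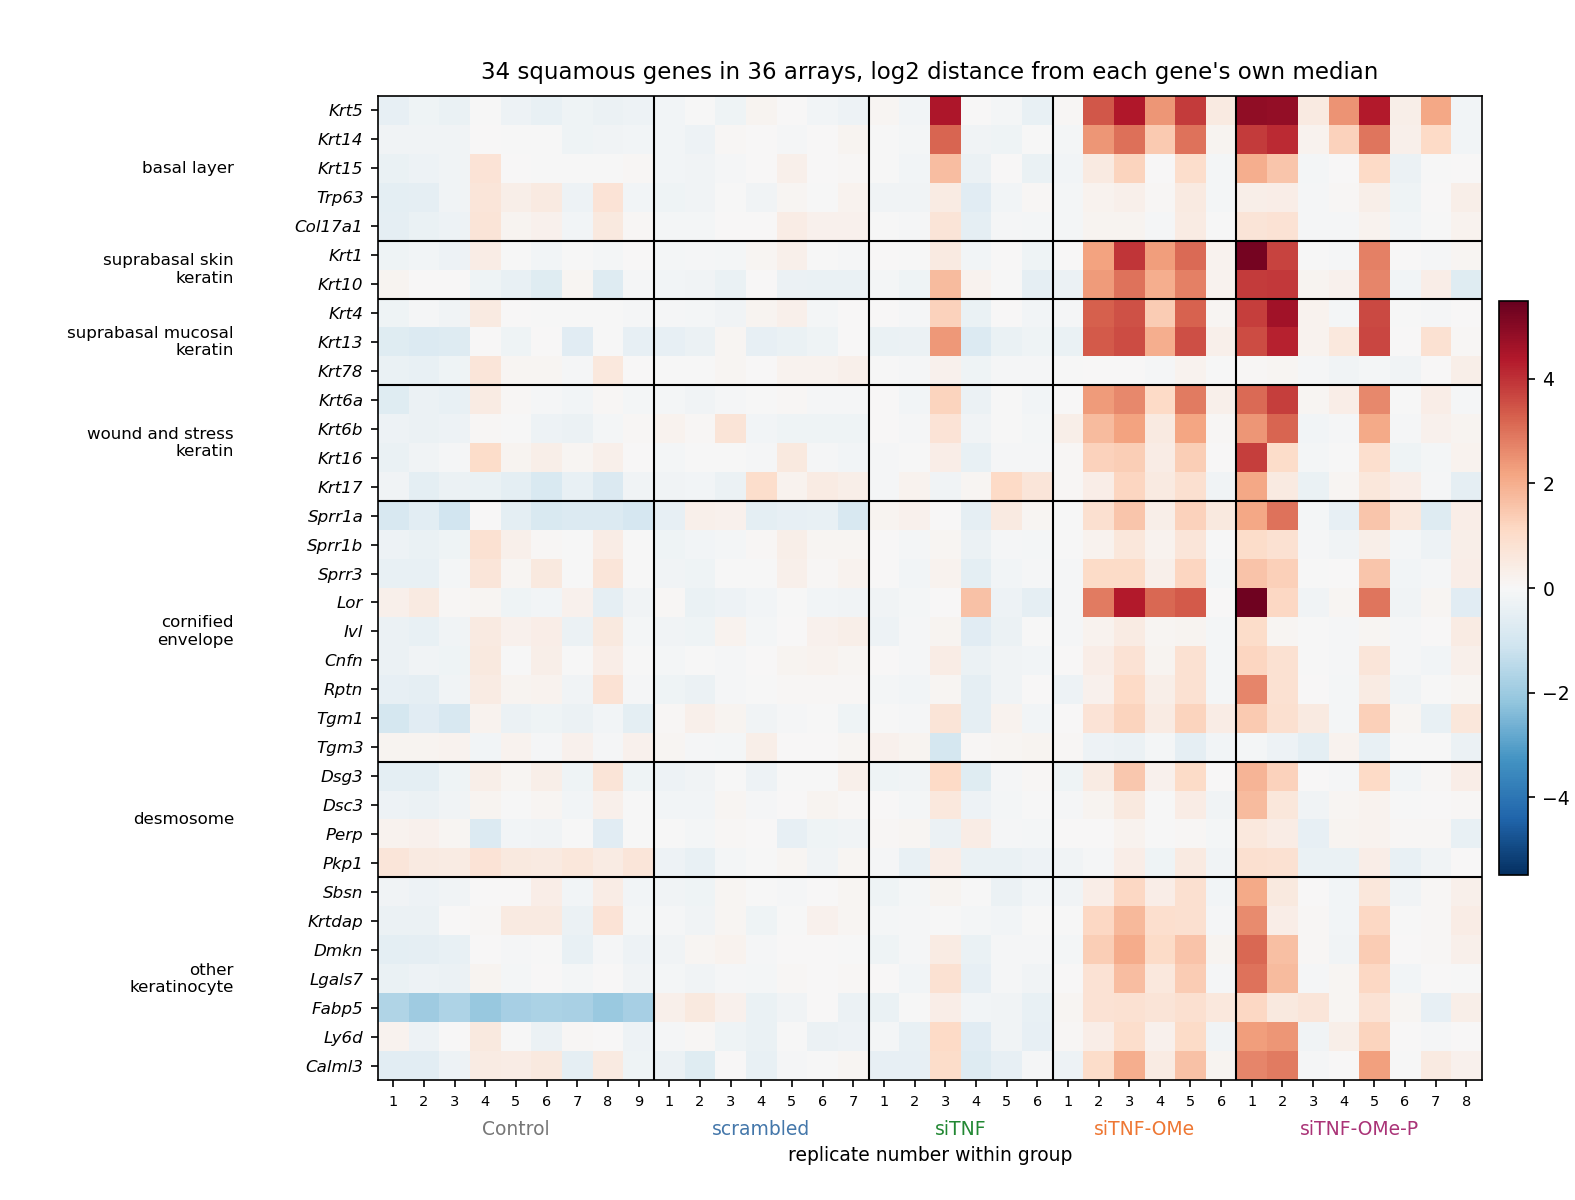
Log2 distance of each of the 34 squamous genes (rows, ordered by role) from its own median over the 36 arrays (columns, ordered by group and replicate number), as colour. The raised columns are siTNF 3, siTNF-OMe 2, 3, 4 and 5, and siTNF-OMe-P 1, 2 and 5, while on them Krt78 is at most 0.23 above its median, Tgm3 is below its own, and Perp and Pkp1 reach at most 0.56 and 0.86.

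Promoter sequence was looked at for the listed genes, whether or not they were raised. Starts of transcription and sequence were taken from a table of RefSeq promoters on mouse build GRCm38.p6 that covered 20 of the 37 listed genes, and 250 bases before each start were searched on both strands. The AP-1 motif TGANTCA, bound by Fos and Jun family factors, was found in 10 of the 20 genes (50%) and in 7.83% of the 26987 genes in that table. The TATA box motif TATAAA was in 11 of the 20 (55%) and in 14.3% of all. A p53 family motif (CATG, any 6 bases, CATG) was in 0 of the 20 and in 0.567% of all. The motifs do not overlap in the windows printed here. The windows of 5 genes with different motif content are printed, with motif matches in capitals. All are written 5′ to 3′ on the gene's strand, which is the minus strand for each. These genes were not high on all of the same arrays. On siTNF 3, Lor and Sprr1a were only 0.01 and 0.03 above their medians.
Krt13 chr11:100120578-100120827: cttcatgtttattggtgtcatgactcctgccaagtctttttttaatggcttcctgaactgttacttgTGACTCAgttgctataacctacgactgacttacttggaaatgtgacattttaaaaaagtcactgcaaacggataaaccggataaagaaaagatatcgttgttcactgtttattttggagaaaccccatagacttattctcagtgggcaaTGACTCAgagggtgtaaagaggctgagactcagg
Sprr1a chr3:92485882-92486131: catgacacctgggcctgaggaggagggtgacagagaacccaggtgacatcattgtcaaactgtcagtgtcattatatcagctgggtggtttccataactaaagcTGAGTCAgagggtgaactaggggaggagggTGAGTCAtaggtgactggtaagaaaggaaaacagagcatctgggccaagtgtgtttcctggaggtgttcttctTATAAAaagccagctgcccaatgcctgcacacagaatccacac
Lor chr3:92083143-92083392: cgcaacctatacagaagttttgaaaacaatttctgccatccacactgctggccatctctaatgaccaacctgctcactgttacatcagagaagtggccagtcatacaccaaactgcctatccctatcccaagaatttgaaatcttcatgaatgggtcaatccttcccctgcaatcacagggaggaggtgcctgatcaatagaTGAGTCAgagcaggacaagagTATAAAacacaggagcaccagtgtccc
Krt10 chr11:99389365-99389614: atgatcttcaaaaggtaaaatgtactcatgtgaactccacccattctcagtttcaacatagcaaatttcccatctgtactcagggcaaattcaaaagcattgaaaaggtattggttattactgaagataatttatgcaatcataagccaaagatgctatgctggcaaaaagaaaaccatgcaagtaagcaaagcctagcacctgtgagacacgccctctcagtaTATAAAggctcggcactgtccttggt
Krt14 chr11:100206031-100206280: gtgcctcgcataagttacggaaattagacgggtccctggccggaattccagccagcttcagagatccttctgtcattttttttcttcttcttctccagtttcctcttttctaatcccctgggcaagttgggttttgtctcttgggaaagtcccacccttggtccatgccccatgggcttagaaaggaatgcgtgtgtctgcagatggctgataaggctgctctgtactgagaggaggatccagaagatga
The mucosal keratin gene Krt13 had AP-1 matches beginning 183 and 34 bases before the printed start and no TATA match. Another Krt13 start was in the promoter table, with its window at chr11:100121567-100121816, which lies before the printed window on the gene's strand. That window is not printed and had 1 AP-1 match, beginning at 196 bases, and no TATA match. Sprr1a had AP-1 matches at 146 and 116 bases and a TATA match at 43, and Lor an AP-1 match at 48 and a TATA match at 27. Krt10 had a TATA match alone, at 26 bases, and Krt14 had no match. Krt5, whose window is not printed, had no match either. The genes with a match included Flg, which had no probe set of its own, and Tgm3, which was below its median on the high arrays. A match is a run of letters and was not tested as a binding site. Any link between these motifs and the shared rise was not tested.

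Krt5 and Krt14 were 1 unit or more above their medians on 10 arrays each, more than any other member. Krt5, the type II keratin of dividing basal cells, had lowest, median and highest log2 intensities of 6.96, 7.10 and 7.39 in Control and 7.12, 7.24 and 7.55 in the scrambled group. It read 6.96, 7.34 and 11.85 in siTNF, 7.44, 10.32 and 11.80 in siTNF-OMe, and 7.25, 9.67 and 12.27 in siTNF-OMe-P. All 6 siTNF-OMe arrays were above all 9 Control arrays, although the lowest, at 7.44, was only just above them, and the siTNF-OMe-P range overlapped that of Control.

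Krt14, the type I partner with which Krt5 forms filaments, was 7.97, 8.03 and 8.26 in Control and 7.96, 8.24 and 8.36 in the scrambled group. Its values were 8.00, 8.15 and 11.43 in siTNF, 8.10, 10.15 and 11.23 in siTNF-OMe, and 8.08, 9.40 and 12.33 in siTNF-OMe-P. The same arrays were high as for Krt5. Krt5 and Krt14 were also raised on siTNF-OMe-P 4 (2.45 and 1.27 above their medians) and on siTNF-OMe-P 7 (2.12 and 1.10). On both of those arrays no other member was 1 unit above its median, and Lor stood at 0.10 and 0.11.

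The other basal members moved less. Krt15, a keratin of basal and stem-like keratinocytes, was highest at 9.06 on siTNF-OMe-P 1, 2.00 above its median, and 1.69 above it on siTNF 3. Col17a1, the collagen that anchors basal cells in hemidesmosomes, reached at most 0.80 above its median, on siTNF-OMe-P 2. Trp63, which encodes the p53 family factor p63 that maintains basal keratinocytes, never reached 1 above its median. Its highest value of 8.56 was on the narrow array Control 8, and on the 8 high arrays it was 0.05 to 0.51 above its median.

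The suprabasal keratins come in pairs, of which Krt1 and Krt10 belong to the upper layers of skin. Krt1 had lowest, median and highest values of 6.64, 6.80 and 7.34 in Control, 6.80, 6.87 and 7.18 in the scrambled group, 6.68, 6.91 and 7.40 in siTNF, 6.94, 9.18 and 10.86 in siTNF-OMe, and 6.83, 6.99 and 12.17 in siTNF-OMe-P. It was 5.25 above its median on siTNF-OMe-P 1, which is the second largest excess of any member on any array, and 0.49 above on siTNF 3. Krt10 was 7.73, 8.36 and 8.59 in Control, 8.06, 8.10 and 8.43 in the scrambled group, 7.92, 8.38 and 10.16 in siTNF, 8.11, 10.60 and 11.42 in siTNF-OMe, and 7.75, 8.73 and 12.30 in siTNF-OMe-P.

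Krt4 and Krt13 form the matching pair of moist squamous mucosa. Krt4 was 6.18, 6.38 and 6.91 in Control, 6.23, 6.35 and 6.70 in the scrambled group, 6.05, 6.39 and 7.70 in siTNF, 6.36, 8.71 and 9.92 in siTNF-OMe, and 6.28, 6.51 and 11.05 in siTNF-OMe-P. Krt13 was 6.91, 7.23 and 7.70 in Control, 7.22, 7.36 and 7.79 in the scrambled group, 6.93, 7.32 and 10.06 in siTNF, 7.30, 10.34 and 11.25 in siTNF-OMe, and 7.71, 8.37 and 11.91 in siTNF-OMe-P. The lowest of the 8 siTNF-OMe-P arrays exceeded the highest Control array for Krt13 by less than 0.02, so those groups touched without overlapping. Krt78, a further keratin of squamous mucosa, did not follow, with a range of 6.89 to 7.96 over all 36 arrays and its highest value in Control.

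On each of the 8 arrays both pairs were above their medians, in different proportion. The mean distance of Krt1 and Krt10 minus that of Krt4 and Krt13 was 0.85 on siTNF-OMe-P 1 and 0.47 on siTNF-OMe 4, where the skin pair was raised more. It was -0.07 on siTNF-OMe 3 and -0.45 on siTNF-OMe 5. The mucosal pair was raised more on siTNF-OMe-P 2 (-0.65), siTNF 3 (-0.73), siTNF-OMe-P 5 (-0.96) and siTNF-OMe 2 (-1.03). Both signs occurred within siTNF-OMe and within siTNF-OMe-P, and with 1 array per sample these differences have no replicate of their own.

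**Figure D2:**
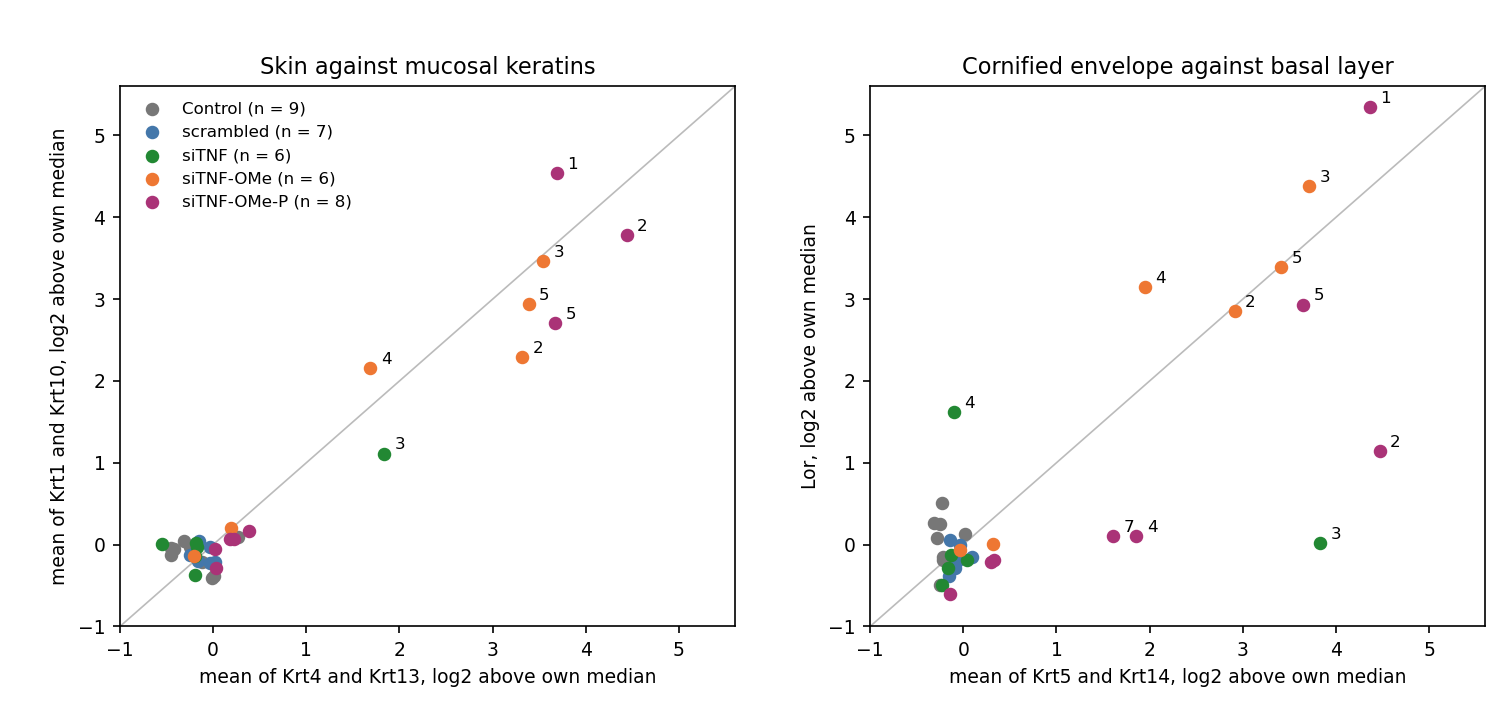
Each point is 1 of the 36 arrays, in log2 distance from the gene's own median, with the grey line marking equal distances. Left, the mean of Krt1 and Krt10 against the mean of Krt4 and Krt13, where siTNF-OMe-P 1 lies 0.85 to the skin side; right, Lor against the mean of Krt5 and Krt14, where siTNF 3 has 3.83 for the basal pair and 0.01 for Lor.

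Krt6a, Krt6b, Krt16 and Krt17 are keratins of oral and hair follicle epithelium that skin makes after wounding. Krt6a was 7.15, 7.69 and 8.25 in Control, 7.61, 7.75 and 7.87 in the scrambled group, 7.49, 7.72 and 9.03 in siTNF, 7.81, 9.52 and 10.67 in siTNF-OMe, and 7.75, 8.17 and 11.61 in siTNF-OMe-P. Krt6b, a near copy of Krt6a, ranged from 6.82 to 7.22 in Control and from 7.24 to 9.38 in siTNF-OMe. Those groups touched without overlapping, and the scrambled range of 6.90 to 7.86 overlapped that of siTNF-OMe. Krt16 was highest on siTNF-OMe-P 1, at 10.65, and at most 8.22 on every other array. Krt17 reached 10.73 there, and its medians of 8.20 in Control, 8.79 in the scrambled group, 8.77 in siTNF, 9.06 in siTNF-OMe and 8.84 in siTNF-OMe-P put all siRNA-dosed groups above Control. Because Krt6a and Krt6b, and Krt14, Krt16 and Krt17, are close in sequence, their probe sets may share signal.

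The cornified envelope members were uneven. Lor encodes loricrin, the main protein of the envelope in skin. Its lowest, median and highest values were 6.40, 6.97 and 7.40 in Control, 6.51, 6.74 and 6.94 in the scrambled group, 6.40, 6.73 and 8.51 in siTNF, 6.83, 9.89 and 11.27 in siTNF-OMe, and 6.29, 6.99 and 12.24 in siTNF-OMe-P. The value of 5.35 above its median on siTNF-OMe-P 1 was the largest excess of any member on any array. The 8.51 in siTNF was on siTNF 4, where no other member was raised by 1 unit, while siTNF 3 read 6.90.

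Sprr1a encodes a small proline-rich protein that is cross-linked into the envelope. It was 7.95, 8.25 and 9.01 in Control, 8.15, 8.56 and 9.30 in the scrambled group, 8.50, 9.14 and 9.49 in siTNF, 9.01, 9.70 and 10.55 in siTNF-OMe, and 8.31, 9.48 and 12.01 in siTNF-OMe-P. Its highest value was on siTNF-OMe-P 2, where Lor was only 1.14 above its median. Sprr3, of the same family and typical of oesophagus, reached 8.32, and Sprr1b 7.22, both on siTNF-OMe-P 1. Rptn, which encodes repetin of the granular layer, was at most 7.45 on all arrays other than siTNF-OMe-P 1, where it read 9.03. Ivl, for involucrin, was at most 8.11, and Cnfn, for cornifelin, at most 9.51, both on siTNF-OMe-P 1.

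The 2 transglutaminases, which cross-link envelope proteins, differed from each other. Tgm1, the membrane-bound keratinocyte enzyme, was 7.47, 8.08 and 8.59 in Control, 8.18, 8.41 and 8.72 in the scrambled group, 7.91, 8.38 and 9.15 in siTNF, 8.43, 9.02 and 9.64 in siTNF-OMe, and 8.01, 8.99 and 9.85 in siTNF-OMe-P. Tgm3 had medians of 12.98, 12.87, 12.95, 12.62 and 12.63 in the same order of groups, and its lowest value of 11.88 was on siTNF 3.

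The layers were therefore not raised in one proportion. The basal pair Krt5 and Krt14 was 3.83 above its median on siTNF 3, 4.47 on siTNF-OMe-P 2 and 4.37 on siTNF-OMe-P 1, while Lor was 0.01, 1.14 and 5.35 above on the same arrays. On siTNF-OMe 4 the order was the other way, with 1.95 for the basal pair and 3.15 for Lor. siTNF-OMe 2 had 2.91 and 2.85, siTNF-OMe 3 had 3.71 and 4.38, siTNF-OMe 5 had 3.41 and 3.39, and siTNF-OMe-P 5 had 3.65 and 2.93. On siTNF 3, Krtdap and Sprr1a were also at their medians (-0.03 and 0.03), and Krt13 was 2.39 above.

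Desmosomes are the junctions that hold squamous layers together. Dsg3, the desmoglein of basal cells and mucosa, and Dsc3, its desmocollin counterpart, were highest on siTNF-OMe-P 1, by 1.86 and 1.74 above their medians. Dsg3 was 1.06 to 1.86 above on 6 arrays, which were siTNF 3, siTNF-OMe 3 and 5, and siTNF-OMe-P 1, 2 and 5. Pkp1, for plakophilin of squamous desmosomes, differed in another way. Its range was 8.75 to 9.08 in Control, 7.91 to 8.41 in the scrambled group and 7.91 to 8.68 in siTNF, so these groups did not overlap Control, and the siTNF-OMe and siTNF-OMe-P ranges of 8.06 to 8.80 and 7.92 to 9.17 did. Perp, for a desmosomal membrane protein that p63 induces, stayed between 10.16 and 11.48 on all 36 arrays, with its highest values on siTNF-OMe-P 1 and 2. Pkp1 was also highest on those 2 arrays, 0.86 and 0.85 above its median.

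The remaining members are secreted or cytoplasmic keratinocyte proteins. Dmkn, for dermokine, a secreted protein of upper epidermal layers, was 8.63, 8.88 and 9.19 in Control, 8.96, 9.16 and 9.36 in the scrambled group, 8.81, 9.08 and 9.60 in siTNF, 9.03, 10.37 and 11.18 in siTNF-OMe, and 8.95, 9.32 and 12.33 in siTNF-OMe-P. Krtdap, Sbsn and Lgals7, for keratinocyte differentiation-associated protein, suprabasin and galectin-7, were highest on siTNF-OMe-P 1, at 9.56, 10.64 and 10.74. Ly6d, a surface antigen of stratified epithelia, and Calml3, a calmodulin-like protein of epithelia, were highest on siTNF-OMe-P 2, at 11.01 and 10.88. Fabp5, the epidermal fatty acid binding protein, separated Control from the siRNA-dosed groups instead, while the dosed groups overlapped among themselves. It was 9.27, 9.52 and 9.71 in Control and 10.98, 11.40 and 11.88 in the scrambled group, with 10.95, 11.19 and 11.73 in siTNF, 11.45, 12.12 and 12.24 in siTNF-OMe, and 10.90, 11.78 and 12.51 in siTNF-OMe-P. Every siRNA-dosed array was above every Control array for Fabp5, those with low keratins included.

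**Figure D3:**
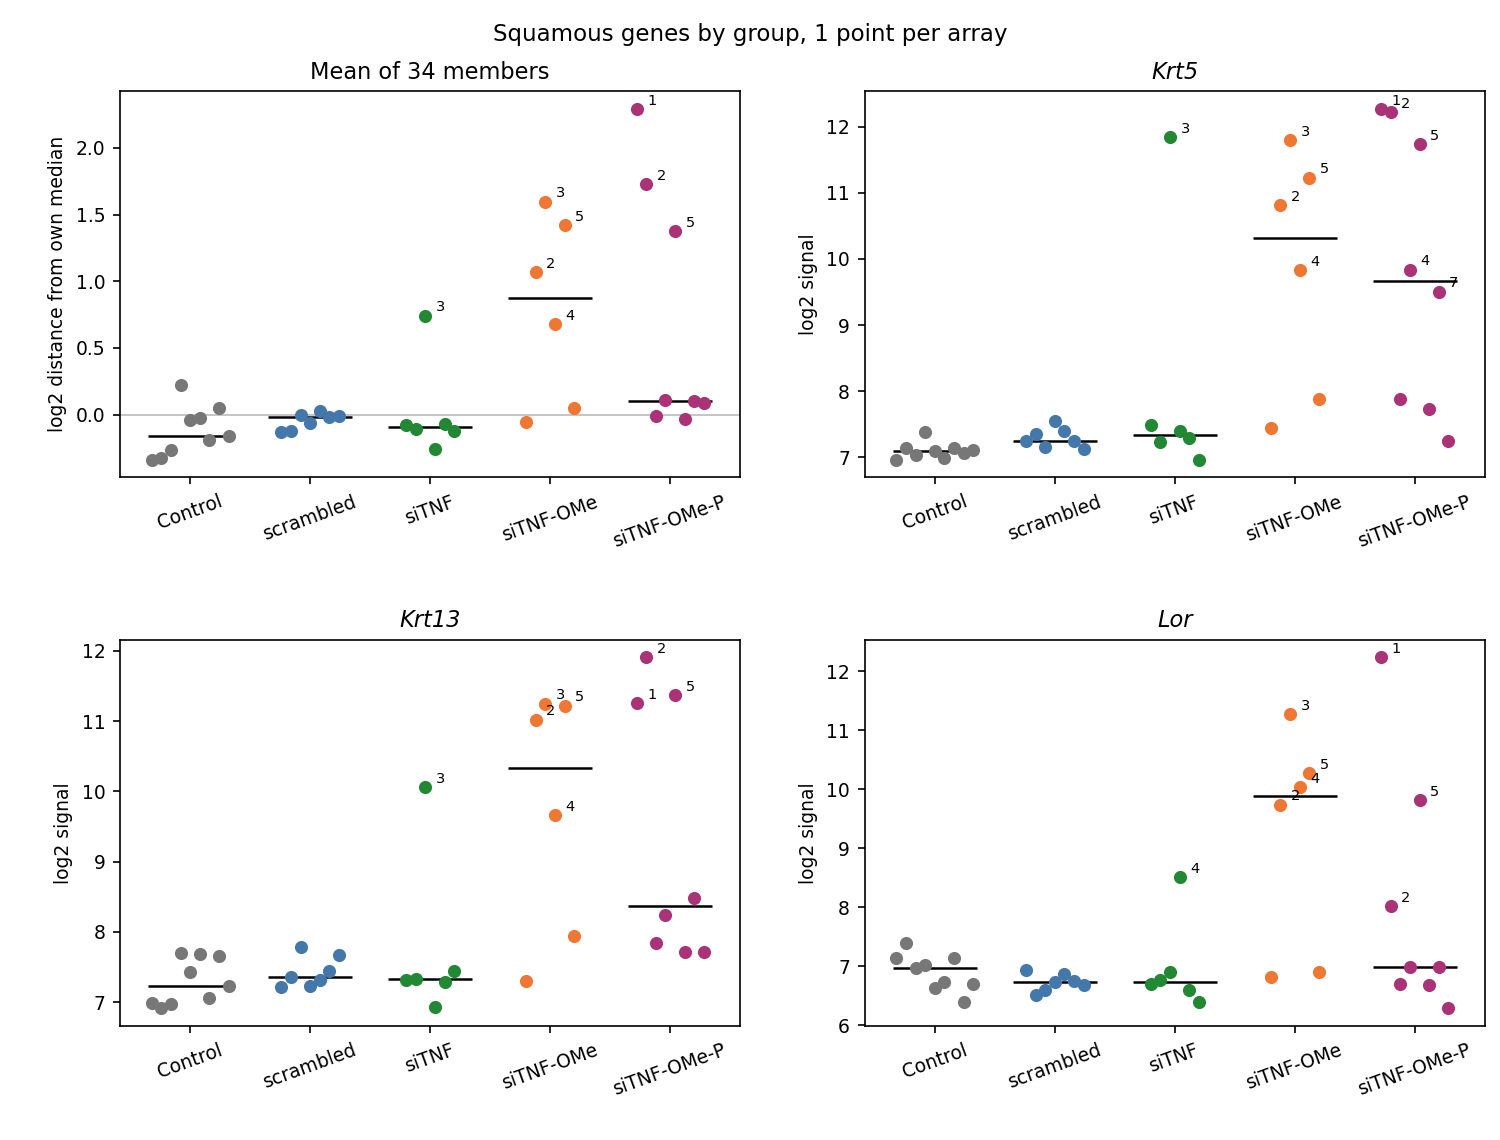
Panels by group, 1 point per array with its replicate number and a black line at the group median: the mean log2 distance of the 34 genes from their medians, and the log2 intensities of Krt5, Krt13 and Lor. The same replicates stand high in the panels for the mean and for Krt13, Krt5 is also raised on siTNF-OMe-P 4 and 7, and Lor is at 6.90 on siTNF 3.

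Likeness between members was measured as Pearson's r between a gene and the mean of the other members over 36 arrays, which share batches and the same 8 high arrays. It was 0.9 or more for 13 of the 34 genes, between 0.5 and 0.9 for 17 and under 0.5 for 4. Those 4 were Pkp1 (0.39), Perp (0.35), Krt78 (0.18) and Tgm3 (-0.59). Since the 8 arrays stand apart, r was also taken among them and among the other 28. Lgals7 kept r of 0.95 among the 8 and 0.87 among the 28, and Krt6a 0.83 and 0.90. Krt10 had 0.93 and -0.33, Lor 0.51 and -0.50, Perp 0.91 and -0.70, and Krt78 0.03 and 0.71. Of the 28, 6 are narrow arrays.

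Outside the list, the 10 genes most like the mean of the members over the 36 arrays were Crabp2 (r = 0.98), Ppbp (0.96), Trim29 (0.94), Calm4 (0.93), Tmprss11g (0.91), Arg1 (0.89), Teddm3 (0.89), Tmprss11d (0.89), Tmprss11b (0.88) and Psapl1 (0.88). For Crabp2, r was 0.84 among the 8 high arrays and 0.92 among the other 28.

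Group differences were fitted with limma over all 28853 probe sets and all 36 arrays, with the amplification and hybridization batches of the labels as terms, and a probe set was called at a Benjamini-Hochberg adjusted p of 0.05 or less. The 4 comparisons with Control share the same 9 Control arrays. Because the members were picked for their values on these arrays, their counts are set beside the share of all probe sets called and nothing is read from them. In the scrambled group against Control, 2 of the 34 members were called, 1 in each direction, and 11.7% of all probe sets (7.27% higher, 4.45% lower). Fabp5 was higher by 1.90 (SE 0.16, adjusted p = 2.80e-10) and Pkp1 fell by 0.68 (SE 0.16, adjusted p = 0.00340). The same 2 genes were called in siTNF, where 13.8% of probe sets were (9.09% higher, 4.71% lower), with Fabp5 higher by 1.72 (adjusted p = 4.69e-09) and Pkp1 lower (-0.78, adjusted p = 0.0012). The median member differed from Control by 0.03 and 0.05.

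In siTNF-OMe against Control, 14 members were higher and 1 lower, and 14.8% of all probe sets were called (9.01% higher, 5.81% lower). The median member was higher by 0.64, beside -0.05 for the median probe set. Krt5 was higher by 2.70 (SE 0.72, adjusted p = 0.00821), which is 6.49-fold, and Krt13 by 2.43 (SE 0.63, adjusted p = 0.00636). The skin keratins followed with 2.05 for Krt1 (adjusted p = 0.0174) and 1.87 for Krt10 (adjusted p = 0.0170), and Lor with 2.27 (SE 0.65, adjusted p = 0.0128). Krt4, Krt14, Krt6a, Krt6b, Krt17, Sprr1a, Dmkn, Tgm1 and Fabp5 were the other members called higher, by 0.94 for Krt17 to 2.50 for Fabp5, and Pkp1 was the one called lower (-0.54). By role, these were both skin keratins, 2 of 3 mucosal keratins, 2 of 5 basal members, 3 of 4 wound keratins, 3 of 9 envelope members and 2 of 7 other keratinocyte members.

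In siTNF-OMe-P against Control, 11 members were higher and Pkp1 was lower (-0.47), beside 15.9% of all probe sets (9.35% higher, 6.58% lower). The median member was higher by 0.68 and the median probe set differed by -0.03. Krt5 was higher by 2.67 (SE 0.67, adjusted p = 0.00416), or 6.36-fold, Krt13 by 2.00 (SE 0.58, adjusted p = 0.0149) and Sprr1a by 1.46 (SE 0.33, adjusted p = 0.00155). Krt14, Krt10, Krt6a, Krt6b, Dmkn, Tgm1, Krt17 and Fabp5 were also called. The call of Krt10 (adjusted p = 0.0477) was lost in 24 of the 36 fits that left out 1 array, with adjusted p up to 0.159. Krt1 (1.48, adjusted p = 0.0714), Krt4 (1.49, adjusted p = 0.0797) and Lor (1.02, adjusted p = 0.33) were not. Directly compared, siTNF-OMe-P minus siTNF-OMe was -0.57 for Krt1 (SE 0.63), -0.44 for Krt4 (SE 0.64), -1.25 for Lor (SE 0.66) and -0.03 for Krt5 (SE 0.75), and none was called.

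These counts moved with single arrays and with the spread of the arrays. Without siTNF-OMe 3 or without siTNF-OMe 5, 7 members were called in siTNF-OMe against Control, and without siTNF-OMe-P 1 or 5 the count in siTNF-OMe-P was 5 or 7. With the 8 narrow arrays left out it was 27 and 19, while 54% and 48% of all probe sets were then called. Within the first hybridization batch alone 1 member was called in each of these 2 comparisons, and within the second 4 in each. The fit assumes 1 spread for all groups, whereas the standard deviation of Krt1 was 0.21 in Control and 2.13 in siTNF-OMe-P.

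Against the scrambled siRNA, which controls for siRNA dosing, and among the 3 siRNAs to TNF, limma called 0 of 28853 probe sets (0%) in each of 6 comparisons, so no member was called. At an unadjusted p under 0.05, 17 members and 455 probe sets passed in siTNF-OMe against scrambled and 18 members and 836 probe sets in siTNF-OMe-P against scrambled. In siTNF against scrambled these were 0 members and 311 probe sets, and in siTNF-OMe-P against siTNF-OMe 0 and 74. Against siTNF, 17 members and 494 probe sets passed for siTNF-OMe, and 20 and 1002 for siTNF-OMe-P. The probe set counts are out of 28853. The members were listed for their variation on these same arrays, so nothing is read from their unadjusted counts. The differences were of the same order as those from Control, with 2.38 for Lor (SE 0.68, limma unadjusted p = 0.00144) in siTNF-OMe and 2.42 for Krt5 (SE 0.72, limma unadjusted p = 0.00195) in siTNF-OMe-P, but did not pass adjustment.

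Measures that did not choose the members were tested in the same way. The labels give for each colon its myeloperoxidase activity, an enzyme measure of neutrophils, and its length, which shortens in colitis. The activity was 0.009 to 0.088 U/mg in Control and 0.031 to 1.35 U/mg in the siRNA-dosed colons. Labelled lengths were 7.2 to 8.1 in Control and 5.2 to 7.1 in the siRNA-dosed colons. For the slope on log2 myeloperoxidase within groups, limma called 0 probe sets (381 at an unadjusted p under 0.05, 0 of them members). The members' slopes lay between -0.20 and 0.07 per doubling. The 8 high arrays had activities from 0.031 U/mg on siTNF-OMe-P 5 to 0.815 U/mg on siTNF-OMe-P 1, with 0.703 on siTNF 3 and 0.217 on siTNF-OMe 5, and siTNF-OMe 1, with low squamous genes, had 1.157 U/mg. For colon length limma called 0 probe sets (352 unadjusted, 0 members), and the smallest unadjusted p among members was 0.0768, for Krt5. For the amplification batch it called 0 (4073 unadjusted, 1 member, Perp, unadjusted p = 0.00810), and for the hybridization batch 0 (665 unadjusted, 0 members). The 8 high arrays came from all 3 amplification batches and both hybridization batches.

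The rest of the squamous programme was read from lists of other genes. Their median differences from Control in siTNF-OMe and siTNF-OMe-P lay between -0.03 and 0.26. The members' medians were 0.64 and 0.68. Because the members were listed for their variation on these same arrays, nothing is read from that gap. Of all probe sets, 9.01% were called higher and 5.81% lower in siTNF-OMe against Control, and 9.35% and 6.58% in siTNF-OMe-P. The list counts here and below stand beside those shares, and nothing is read from counts near them. The epidermal differentiation complex is the cluster that also holds Lor, Ivl and the Sprr genes. Of 37 further genes of this complex, 2 were called higher in siTNF-OMe and 3 in siTNF-OMe-P against Control. Their median difference was 0.14 in both. The genes called were S100a16 (0.40 and 0.44), Lce1g (0.14 and 0.10) and, in siTNF-OMe-P, S100a14 (0.52). S100a16 was also called higher in the scrambled group (0.39) and siTNF (0.33), and S100a14 in the scrambled group (0.51). On siTNF-OMe-P 1, 14 of the 37 were at least 1 above their median, and on siTNF-OMe 3, 9 were. Of 10 other squamous keratins, Krt23 (0.65) and Krt84 (0.33) were called in siTNF-OMe and Krt80 (0.42) in siTNF-OMe-P, and Krt23 was higher by more in siTNF (1.26). Of 21 proteases and inhibitors of squamous epithelium, Wfdc12, a secreted protease inhibitor, was called higher in both (0.78 and 0.90), Klk10 in siTNF-OMe (0.56), and Casp14, the caspase of cornification, was lower in siTNF-OMe-P (-0.67). On siTNF-OMe-P 1, 12 of those 21 were 1 unit above their median.

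Of 18 keratinocyte transcription factors, Pitx1 was called higher in both (0.82 and 0.78), and Ehf and Klf5, which colon epithelium also expresses, were lower (-0.53 and -0.49 in siTNF-OMe, -0.64 and -0.59 in siTNF-OMe-P). Pitx1 was also higher in the scrambled group (0.55) and in siTNF (0.58). Of 12 lipid barrier genes, Acer1, an alkaline ceramidase, was lower in siTNF-OMe (-1.86) and siTNF-OMe-P (-1.70), and also in the scrambled group (-1.49) and siTNF (-1.94), and Lipk, a lipase, was higher in siTNF-OMe-P (0.29). Of 9 hemidesmosome genes, Itga3 and Cd151 were higher in siTNF-OMe (0.48 and 0.37) and Cd151 in siTNF-OMe-P (0.35). Itga3 was called higher in the scrambled group (0.53) and siTNF (0.70) too, with Plec in the scrambled group (0.38) and Dst in siTNF (0.40). Of 8 desmosome genes shared with simple epithelium, only Evpl was called, lower in siTNF-OMe (-0.29). Of 18 surface genes of stratified epithelium, 3 and 4 were higher, led by Emp1 (0.83 and 0.92), Sfn (0.74 and 0.80) and Il1f9 (0.61 and 0.82). Emp1 and Sfn were called higher in the scrambled group and in siTNF too.

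Markers of neighbouring tissues were read beside the members. The mean of 18 skeletal muscle genes, among them Tnnc2, Ckm and Acta1, taken as distances from own medians, stayed between -0.28 and 0.33 in Control and between -0.09 and 0.14 in the scrambled group. It ranged from -0.12 to 2.07 in siTNF, from 0.00 to 1.31 in siTNF-OMe and from -0.13 to 2.03 in siTNF-OMe-P. The high values were on arrays with high squamous genes: 2.07 on siTNF 3, 2.03 on siTNF-OMe-P 1, 1.31 on siTNF-OMe 3 and 1.12 on siTNF-OMe 5, where 14, 13, 9 and 8 of the 18 genes were 1 unit or more above their median. It was 0.57 on siTNF-OMe 2, 0.33 on siTNF-OMe-P 2 and 0.28 on siTNF-OMe 4. On siTNF-OMe-P 5, where the members averaged 1.37, it was -0.01 and none of the 18 genes was raised by 1 unit. Against Control, Tnnc2 (1.95) and Ckm (0.70) were called in siTNF-OMe and Ckm (0.68) in siTNF-OMe-P.

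The mean of 8 sebaceous gland genes was 1.56 on siTNF-OMe-P 1, with 5 of 8 genes raised by 1 unit, and between 0.04 and 0.59 on the other 7 high arrays, within the Control range of -0.28 to 0.64, whose upper end is the narrow array Control 8. Elovl3 and Krt79, 2 of the 8, were 3.27 and 3.03 above their medians on siTNF-OMe-P 1. On siTNF-OMe 3, 4 and 5 Elovl3 was 1.25, 0.43 and 0.87 above and Krt79 0.93, 0.67 and 1.05, against at most 0.25 and 0.29 in Control. The other sebaceous genes did not all follow. Mc5r, Awat1, Awat2 and Dgat2l6 stayed under their highest Control values of 0.84, 1.12, 0.77 and 1.11 on those arrays. Scd3 and Fads2b exceeded theirs (0.68 and 0.57) on siTNF-OMe 3, at 0.95 and 0.62, but not on siTNF-OMe 4 or 5. The means of 14 hair follicle genes (-0.04 to 0.34 on the 8 high arrays) and 7 melanocyte genes (-0.06 to 0.22) also lay within their Control ranges of -0.29 to 0.50 and -0.24 to 0.52. Of the hair follicle genes Krt27 (0.34) and Krt25 (0.31) were called higher in siTNF-OMe, and no melanocyte or sebaceous gene was called in any siRNA-dosed group against Control. The colon epithelium mean was -0.37 to -0.03 on the 8 high arrays, against -0.36 to 0.25 in Control, and Aqp8 (-1.30 and -1.29) and Slc26a3 (-0.65 and -0.70) were lower and Krt20 (0.34 and 0.33) higher in siTNF-OMe and siTNF-OMe-P. Aqp8 was also called lower in the scrambled group (-1.13) and siTNF (-0.72). Krt20 (0.40 and 0.41) and Cdh17 (0.44 and 0.39) were called higher in those groups.

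Neutrophil genes were higher than Control in all 4 siRNA-dosed groups, with 5 of 12 called in the scrambled group and 7 of 12 in each of the others. The shares of all probe sets called higher were 7.27% in the scrambled group, 9.09% in siTNF, 9.01% in siTNF-OMe and 9.35% in siTNF-OMe-P. The shares called lower were 4.45%, 4.71%, 5.81% and 6.58%. S100a8 differed from Control by 2.04, 2.55, 3.25 and 2.81 in the scrambled, siTNF, siTNF-OMe and siTNF-OMe-P groups, S100a9 by 1.78, 2.12, 2.83 and 2.48, and Il1b by 1.07, 1.44, 1.74 and 1.56. The mean of the 12 genes ranged from -1.05 to -0.39 in Control, -0.40 to 0.97 in the scrambled group, -0.38 to 2.02 in siTNF, 0.02 to 1.18 in siTNF-OMe and -0.39 to 1.61 in siTNF-OMe-P. On arrays with high squamous genes it was 2.02 on siTNF 3 and 1.18 on siTNF-OMe 3, but -0.16 on siTNF-OMe-P 2. Of 7 goblet cell genes, 3 were higher in siTNF-OMe (Muc2 0.35, Spink4 0.32 and Tff3 0.12) and 1 in siTNF-OMe-P (Spink4 0.32). In the scrambled group 5 of the 7 were called higher, and in siTNF 4. Muc2 was higher there by 0.47 and 0.50 and Spink4 by 0.35 and 0.38. Of 16 posterior Hox genes, 4 and 5 were lower in siTNF-OMe and siTNF-OMe-P, led by Hoxa9 (-0.67 and -0.68) and Hoxb13 (-0.59 and -0.60), followed by Hoxb9 in siTNF-OMe (-0.56) and Hoxd10 in siTNF-OMe-P (-0.50). In the scrambled group 2 were called lower, Hoxa9 (-0.54) and Hoxd12 (-0.26). In siTNF 2 were lower, Hoxa9 (-0.62) and Hoxd10 (-0.57), and Hoxa11 was higher (0.26). Of 5 urothelium genes Upk1a was lower in siTNF-OMe (-0.25). The part of these cells and tissues in the squamous values was not tested.

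**Figure D4:**
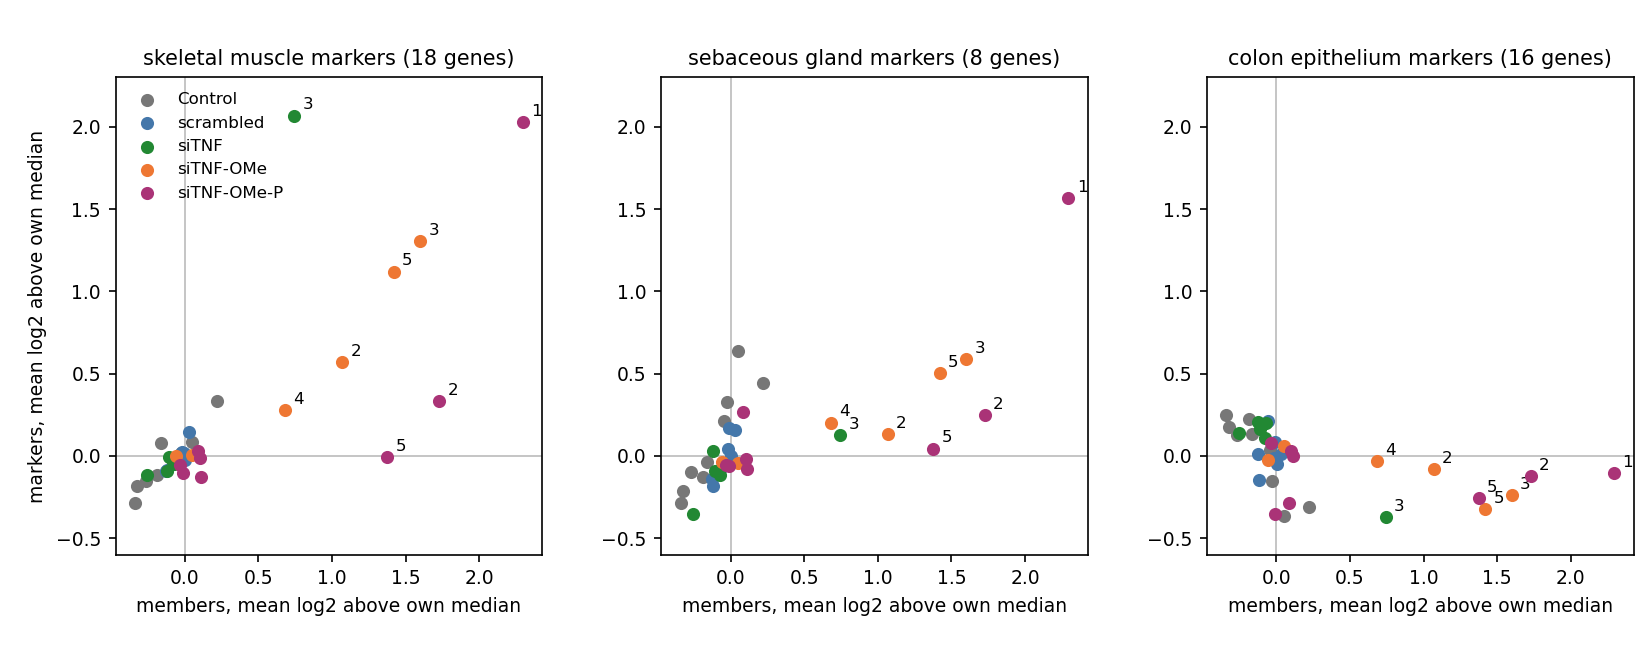
Mean log2 distance from own medians of 18 skeletal muscle, 8 sebaceous gland and 16 colon epithelium genes against that of the 34 squamous genes, 1 point per array, coloured by group. Muscle is at 2.07 on siTNF 3 and 2.03 on siTNF-OMe-P 1 but at -0.01 on siTNF-OMe-P 5, sebaceous genes stand out on siTNF-OMe-P 1 at 1.56, and colon epithelium genes stay between -0.37 and 0.25.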

How the data were processed

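Total RNA of distal colon was amplified from 25 ng, labelled and hybridized to Affymetrix arrays, per the labels' protocols, with 1 array per sample. The authors deposited log2 intensities for 28853 probe sets, and the submitters' processing notes name Partek and RMA, which corrects background, normalizes between arrays by quantiles and summarizes probes; any batch removal and the signal over background are not given in the sources at hand. Gene names came from the platform annotation, in which 21789 probe sets had 1 gene, 1621 several and 5443 none.

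Groups came from the sample titles. Differences were fitted with limma 3.58.1 (lmFit, eBayes with a mean-variance trend) in R 4.3.3, on all 36 arrays with 3 amplification and 2 hybridization batches as terms, two-sided, with Benjamini-Hochberg adjustment over all probe sets at 0.05 and 28 residual degrees of freedom. Values per array were handled in Python 3.11.15 (NumPy 2.4.6, pandas 2.3.3, matplotlib 3.10.9). The fit was tested on simulated data over 28853 probe sets. For siTNF-OMe over Control, simulated shifts of 0.5, 1, 2 and 4 units were called in 72%, 96%, 100% and 100% of cases with 5.15% false calls, and for siTNF-OMe-P over Control in 62%, 94%, 100% and 100% with 4.81%. The simulated noise was independent between genes and arrays, with the same spread in every group and no batch shifts. The squamous genes rose together and spread unequally between groups, so these rates do not apply to their calls.

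The members and lists were chosen with earlier results of these data known. Named in the text are all 34 members, up to 3 called genes with the largest difference per other list in siTNF-OMe and siTNF-OMe-P against Control, and the 10 genes most like the members' mean; members singled out at particular arrays, genes of those lists named for the scrambled and siTNF groups or single arrays, genes moving against the mean, and the use of Krt4 and Krt13 without Krt78 as the mucosal pair, were chosen after values were seen. Alternatives were fits without batch terms, with the replicate number as a block, with only the groups compared, after quantile normalization or median centring, without the dimmest 40% of probe sets, without the trend, with robust moderation, with array weights, without narrow arrays, with array SD as a covariate, within each hybridization batch, without Control, with the other Fabp5 probe set, and without each array in turn. Precision is limited by the number of arrays.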

Additional observations from a re-analysis of the deposited data

Results flagged for a closer look

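Each of the 34 members was looked at within each of the 5 groups, 170 sets of values, for a single array far from the rest of its group by Dixon's test. Such an array was found in 28 sets. Chance gives about 5% among unselected, independent sets, which these are not, since the members were listed for their variation here and rise together, so the count is a description.

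Of the 28, 15 were on siTNF 3. The basal keratins Krt5 (11.85), Krt14 (11.43) and Krt15 (8.75) stood apart there, as did the suprabasal keratins Krt13 (10.06), Krt10 (10.16), Krt4 (7.70) and Krt1 (7.40). Krt6a (9.03), Krt6b (7.93), Dsc3 (6.97), Dmkn (9.60), Lgals7 (8.60), Ly6d (9.65) and Calml3 (9.06) were the other high members on that array, and Tgm3 (11.88) was its one low member. Lor was far from its group on siTNF 4, at 8.51.

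On siTNF-OMe-P 1 the members set apart were Krt16 (10.65), Krt17 (10.73), Sbsn (10.64), Rptn (9.03) and Dsc3 (8.11). On Control 4, which had the smallest array standard deviation of 1.55, they were Krt1 (7.34), Krt4 (6.91), Krt5 (7.39), Krt15 (7.80) and Sprr1a (9.01), each less than 1 unit above its median over 36 arrays. Krt16 on scrambled 5 (7.38) and Krt78 on siTNF-OMe 5 (7.49) were the remaining single values. Groups in which several arrays were high, such as Krt5 in siTNF-OMe, cannot show a single distant array by this measure.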

How the results depend on the processing

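The count of members called against Control moved by over 1.5 times under these alternatives, given with the share of all probe sets called in the same fit. With array weights it was 4 in the scrambled group (56.4%), 28 in siTNF-OMe (47.7%) and 31 in siTNF-OMe-P (47.1%). Without the narrow arrays it was 5 (50%), 27 (54%) and 19 (48%), and with array SD as a covariate 4 (25.6%), 23 (29.8%) and 22 (32.6%). With only the groups compared in the fit it was 4 in siTNF (4.58%) and 7 in siTNF-OMe-P (9.73%). In hybridization batch 1 alone it was 1 in each of the 4 groups (2.73% to 4.89%), and in batch 2 alone 1 in the scrambled group (3.63%) and 4 in both siTNF-OMe (7.29%) and siTNF-OMe-P (7.68%). For the amplification batch, array weights called 2 members and leaving out narrow arrays 1. Leaving out each array in turn gave 2 to 3 members in the scrambled group, 2 to 3 in siTNF, 7 to 17 in siTNF-OMe and 5 to 16 in siTNF-OMe-P, and 0 to 0 in the 6 comparisons without Control and for myeloperoxidase, colon length and both batches. Of 31 named member differences, 27 lost their call in hybridization batch 1 alone and 20 in batch 2 alone, as did 76 of 1116 differences with 1 array left out, while none reversed in any of the alternatives. With the replicate number as a block, 2, 2, 12 and 11 members (11.3%, 12%, 13.8% and 16.3% of probe sets) were called against Control and 0 elsewhere. Over 64 same-numbered pairs of arrays, deviations correlated from -0.70 to 0.87 (median 0.12), 32 pairs were above 0.1, and an array correlated best with its own number in 24 of 128 cases, so the numbers were not taken to pair the samples. Some same-numbered arrays also share batch labels. The cause of the changes was not tested. Signal over background is not known, so a low member cannot be called absent.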

Other observations

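The probe set shared by Dsg1a, Dsg1b and Dsg1c, desmogleins of upper epidermal layers, was not counted among the members. Its lowest, median and highest log2 intensities were 6.96, 7.63 and 8.81 in Control, 7.17, 7.74 and 8.13 in the scrambled group, 6.98, 7.42 and 7.93 in siTNF, 7.51, 7.90 and 8.06 in siTNF-OMe, and 7.68, 7.93 and 8.95 in siTNF-OMe-P. The highest value was on siTNF-OMe-P 1 and the highest in Control on the narrow array Control 8, and all 5 groups overlapped.

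Genes that moved against the members' mean over the 36 arrays were Mptx1, a mucosal pentraxin (r = -0.66), Cyp2d9 (-0.65), Cyp2d12 (-0.64), St3gal4 (-0.63) and Cers6 (-0.63). Among the 8 high arrays alone r was 0.32 for Mptx1 and 0.52 for St3gal4, and -0.40, -0.22 and -0.24 for Cyp2d9, Cyp2d12 and Cers6. All 5 were called by limma in siTNF-OMe-P against Control, with log2 differences of -0.87, -0.45, -1.29, -0.49 and -0.63, where 15.9% of all probe sets were called. In siTNF-OMe against Control Cyp2d9 was not called (limma adjusted p = 0.145), while the others were. Cers6 was also called lower in the scrambled group (-0.41).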
